A study of Rattus norvegicus with 8 samples.

Results

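The neuregulins and their ErbB receptors were followed in RNA-seq libraries of rat medial prefrontal cortex homogenate. The genes were taken by symbol: the ligand genes Nrg1, Nrg2 and Nrg3, and the receptor genes Egfr, Erbb2, Erbb3 and Erbb4. Of the 7 genes sought, 6 had a row in the deposited tables of 17168 genes, and Nrg3 had none and is not analysed here. All 6 passed the filter on low counts, among 11631 genes tested. The libraries came from male Sprague-Dawley rats, 4 of high motor impulsivity (HI) and 4 of low motor impulsivity (LI). Rats were scored in a 1-choice serial reaction time task, in which premature responses measure a failure to wait; HI rats came from the upper end of the scores and LI rats from the lower end. No treatment or genetic change was named for either group, so the comparison is between 2 extremes of 1 outbred stock. The labels do not state that each library is a separate rat, so the tests measure the spread between libraries.

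Neuregulins are growth factors with an EGF-like domain that bind ErbB3 and ErbB4. ErbB2 binds no ligand of its own and signals as a partner of the other receptors, ErbB3 has very weak kinase activity and relies on such partners, and the EGF receptor responds to EGF, TGF-alpha and related ligands. In rodent cortex ErbB4 is known chiefly from GABA interneurons, where neuregulin signalling shapes the excitatory synapses these cells receive, while ErbB3 is known from the oligodendrocyte lineage. Nrg1 has many splice forms and promoters, and both NRG1 and ERBB4 have been studied as risk genes for schizophrenia in humans.

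The libraries held between 7354416 and 9476656 counts each, and no 2 libraries of a group were identical or within sampling noise of each other. Ribosomal RNA took between 0.406% of the counts in HI4 and 25.5% in HI2 of the HI group, and between 0.418% in LI3 and 6.42% in LI2 of the LI group. Levels are given as CPM, reads scaled to a common library size with TMM factors, to compare 1 gene between libraries. They are given as TPM, which divides by transcript length, to compare genes with each other. Transcripts from homogenate cannot show whether a lower level means fewer cells of a type or less RNA per cell.

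Erbb4 was the receptor with the highest levels and the only gene of the 6 in which HI and LI libraries did not overlap. It stood at 37.6, 31.9, 29.7 and 49.6 CPM in HI1 to HI4, against 17.9, 23.8, 25.1 and 22.6 CPM in LI1 to LI4. Every HI library lay above every LI library, with HI3 the nearest to the LI range and HI4 the farthest from it. The mean was 37.2 ± 8.92 CPM over HI libraries and 22.4 ± 3.15 CPM over LI libraries (SD, n = 4 each). This is a log2 fold change of 0.74 ± 0.19 (SE), with a 95% interval from 0.32 to 1.15.

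The Erbb4 difference did not pass the threshold of 0.1 (edgeR quasi-likelihood, unadjusted p = 0.00268, adjusted p = 1.00). That test called 0 of 11631 genes, or 0% of them, with 484 genes (4.16%) at an unadjusted p under 0.05, and DESeq2 called 30 of the 7509 genes it gave an adjusted p (0.4%). DESeq2 gave Erbb4 an adjusted p of 0.112. Fisher's exact test on counts summed within each group, the kind of test the series' design text names, takes no account of the spread between libraries; it called 56.8% of all genes tested and 4 of the 6 genes here, Erbb4, Egfr and Nrg1 higher and Erbb3 lower in HI. Among all genes tested, 25 had a smaller p than Erbb4 and 1.74% had a larger absolute log2 fold change. Separation of the groups in either direction occurred in 402 of the 11631 genes (3.46%), and with HI above LI in 269 (2.31%); among the 6 genes described here it occurred in 1. Only 1 Erbb4 transcript was listed, so its splice forms cannot be told apart.

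**Figure D1:**
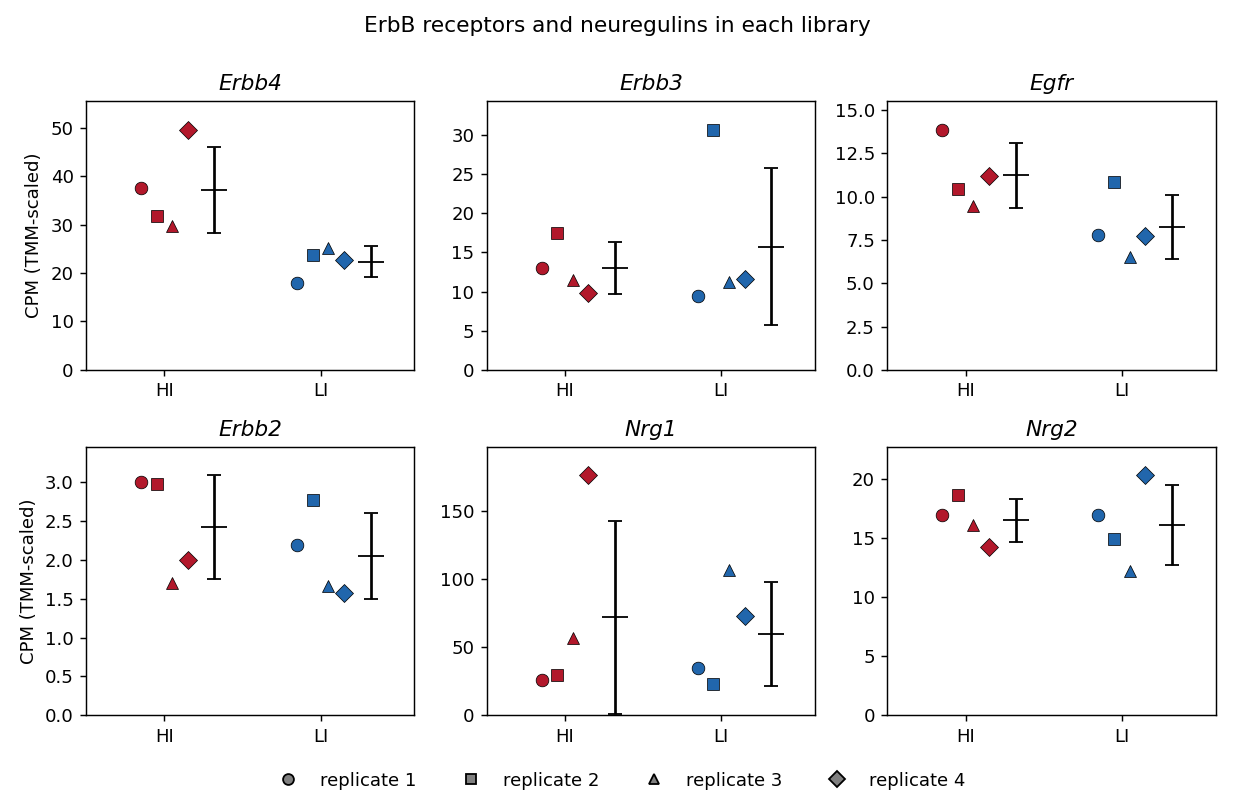
TMM-scaled CPM (y axis, from 0) of each of the 6 genes in the HI and LI libraries, with the replicate number as the marker and the group mean and SD (n = 4) as a bar beside the points. Erbb4 is the only gene whose groups do not overlap, LI2 stands alone for Erbb3, and replicates 3 and 4 of both groups are the high ones for Nrg1.

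Markers of GABA interneurons went in both directions. Of 12 such genes, all tested, 4 were higher and 8 lower in HI, the median log2 fold change was -0.12 (-0.18 to -0.07 with 1 library left out), 3 had an unadjusted p under 0.05 (4.16% of all genes tested did) and none were called; over all genes tested the median was -0.01 and 48.5% of values were higher in HI. The 3 markers with an unadjusted p under 0.05 were Gad1 (-0.42) and Tac3 (-0.52), lower in HI, and Reln (0.36), higher in HI, in log2 fold change. The summed level of the 12 ranged from 2871 to 3693 TPM in HI and from 3274 to 4132 TPM in LI, and no marker was at 0. Cck and Sst were the most abundant, and Cck, at a mean of 1733 TPM, weighed most in this sum. Cck, a neuropeptide that some excitatory neurons also make, differed by -0.13 and Sst, the somatostatin gene, by -0.10 in log2. Excitatory neuron markers, of which Nrgn (-0.18) and Camk2a (0.15) were the most abundant, were higher in HI in 6 of 9. Their median log2 fold change was 0.12 (0.04 without HI3 and 0.25 without LI3). Of the 9, 2 had an unadjusted p under 0.05 (4.16% of all genes tested did), Tbr1 (0.30) and Rorb (0.58), and none was called. The summed level of the 9 was 6575 to 10430 TPM in HI and 7138 to 9930 TPM in LI. The part of either cell type in the Erbb4 values was not tested.

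Egfr, the EGF receptor gene, had the next largest difference among the receptors. It stood at 13.9, 10.4, 9.45 and 11.2 CPM in HI1 to HI4, against 7.81, 10.9, 6.51 and 7.75 CPM in LI1 to LI4. LI2 lay inside the HI range, above HI2 and HI3, and the other 3 LI libraries lay below all HI libraries. The log2 fold change was 0.45 ± 0.20 (SE) with a 95% interval from -0.0046 to 0.91 (edgeR quasi-likelihood, unadjusted p = 0.0519, adjusted p = 1.00), and 6.45% of all genes tested had a larger absolute log2 fold change.

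Erbb3, the receptor with weak kinase activity, was set apart by 1 LI library. It stood at 13.0, 17.5, 11.5 and 9.85 CPM in HI1 to HI4, against 9.37, 30.7, 11.2 and 11.6 CPM in LI1 to LI4. LI2 was far above all others, and the remaining 3 LI libraries lay within or just below the HI range. The log2 fold change was -0.28 ± 0.37 (SE, adjusted p = 1.00, edgeR quasi-likelihood), and without LI2 it was 0.27, the opposite sign.

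LI2 was also the library with the most myelin and striatal transcripts. The 10 oligodendrocyte and myelin markers, with Mbp the most abundant, summed to between 1862 and 2202 TPM in HI, and to 1652, 6644, 3415 and 2615 TPM in LI1 to LI4. All 10 were lower in HI by their means, the median log2 fold change being -0.61, none was called, and none was at 0. LI3 came second for myelin markers. The 8 oligodendrocyte precursor markers (Olig1 and Sox10 the most abundant) summed to between 238 and 296 TPM in HI, and to 246, 373, 279 and 284 TPM in LI1 to LI4. The 8 markers of striatal neurons (Ppp1r1b and Penk the most abundant) summed to 321 to 374 TPM in HI, and to 339, 964, 375 and 384 TPM in LI1 to LI4; none of these was at 0 in all libraries. Without LI2 the median log2 fold change was -0.19 for myelin markers, against -0.61 with it, and -0.05 for striatal markers, against -0.76 with it. The part of these cell types in the Erbb3 values was not tested.

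**Figure D2:**
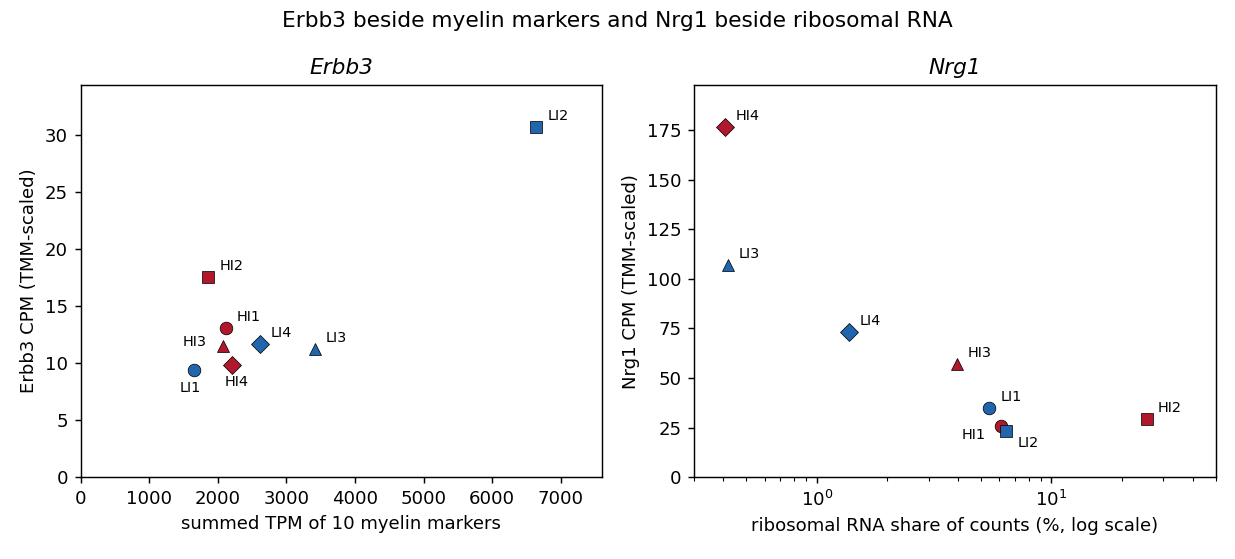
Left, Erbb3 CPM against the summed TPM of 10 myelin markers; right, Nrg1 CPM against the ribosomal RNA share of counts on a log axis; each point is 1 of the 8 libraries, red for HI and blue for LI. LI2 stands alone at 30.7 CPM of Erbb3 and 6644 TPM of myelin markers, and HI4 and LI3, with the least ribosomal RNA, hold the most Nrg1.

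Erbb2, the receptor without a ligand, had the fewest counts of the 6. Its rounded counts were 29, 18, 16 and 15 in HI1 to HI4, against 21, 22, 13 and 15 in LI1 to LI4. In CPM the groups overlapped in part, with LI1 and LI2 inside the HI range. HI1 and HI2 lay above every LI library, and LI3 and LI4 lay below every HI library. A count of 13 has an exact 95% Poisson interval of 6.92 to 22.2, which covers counting error only. Its mean level was 2.42 ± 0.67 CPM over HI libraries and 2.05 ± 0.56 CPM over LI libraries (SD, n = 4 each), with a log2 fold change of 0.23 ± 0.31 (SE, adjusted p = 1.00, edgeR quasi-likelihood). Its 95% interval, from -0.46 to 0.92, leaves room for a difference in either direction.

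**Figure D3:**
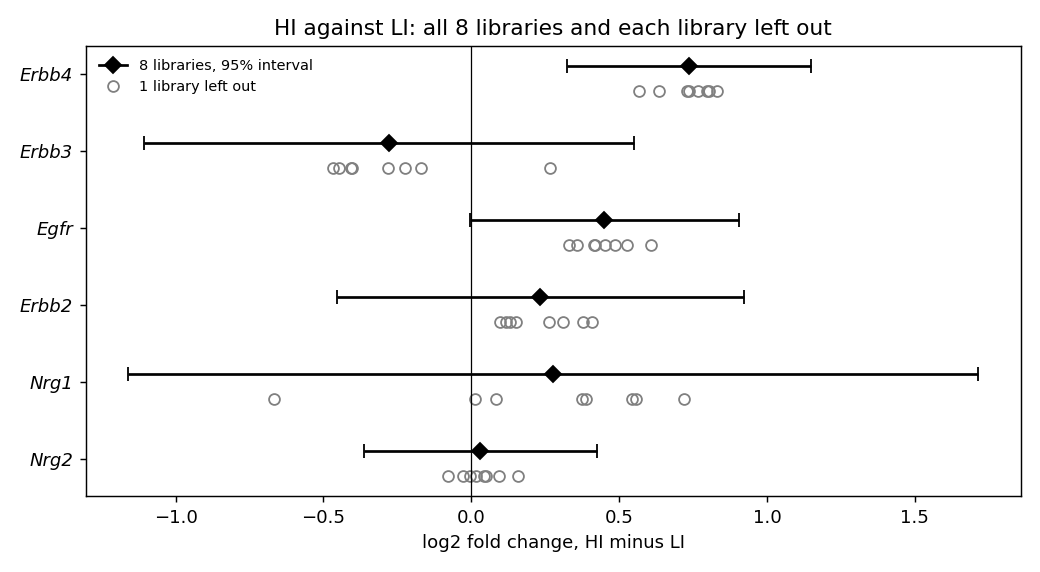
Log2 fold change, HI minus LI, of the 6 genes: diamonds with 95% intervals are from all 8 libraries (edgeR quasi-likelihood) and open circles are the same with 1 library left out. Erbb4 lies between 0.57 and 0.83 whichever library is left out, while Nrg1 ranges from -0.67 to 0.72.

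The make-up of receptor transcripts within a library does not depend on scaling between libraries. Erbb4 took 57.0%, 52.1%, 58.0% and 69.4% of the 4 receptors' summed TPM in HI1 to HI4, against 49.4%, 36.2%, 57.7% and 53.2% in LI1 to LI4. The groups overlapped, since LI3 and LI4 lay above HI2. The mean share was 59.1 ± 7.30% over HI libraries and 49.1 ± 9.27% over LI libraries (SD, n = 4 each), 10.03 percentage points apart (two-sided exact permutation p = 0.171, and 0.514 adjusted over the 6 shares compared). Erbb3 took 20.1 ± 5.87% over HI libraries and 29.9 ± 9.64% over LI libraries (SD of 4, exact permutation p = 0.114, adjusted 0.514). Erbb3 reached 44.3% in LI2, the only library in which it exceeded Erbb4. Without LI2 the Erbb4 shares lay 5.71 and the Erbb3 shares -4.96 percentage points apart. Egfr took 17.4 ± 2.22% in HI and 17.2 ± 2.74% in LI (exact permutation p = 0.857, adjusted 0.914, n = 4 each), and Erbb2 took 3.29 ± 0.83% in HI and 3.77 ± 0.92% in LI (exact permutation p = 0.486, adjusted 0.914, n = 4 each). With 4 against 4 libraries the smallest p this test can give is 0.0286.

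**Figure D4:**
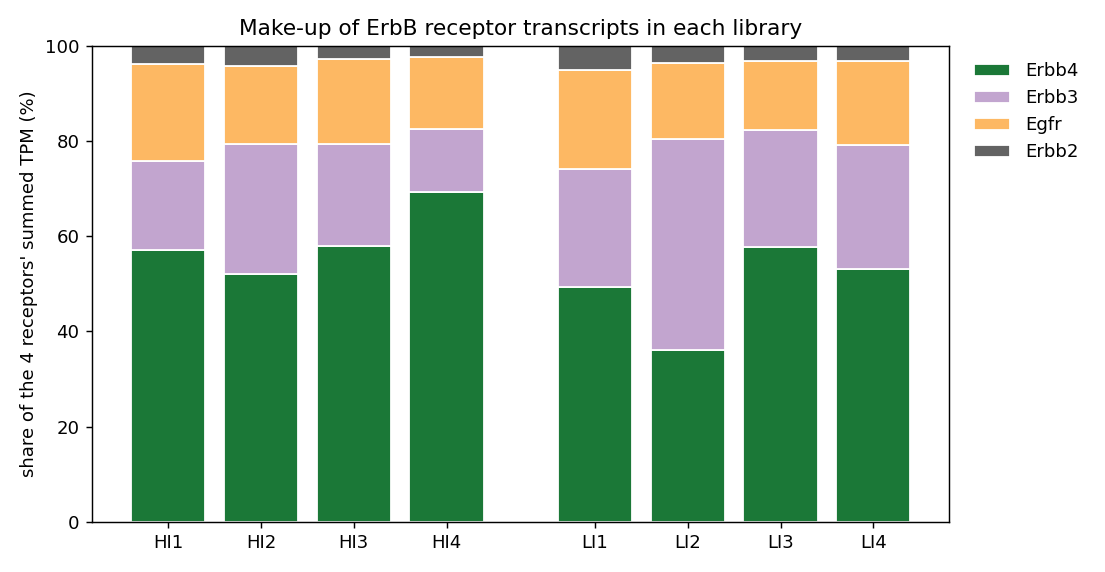
Share of each receptor gene in the summed TPM of Erbb4, Erbb3, Egfr and Erbb2 in each library (stacked bars, %), HI libraries left and LI libraries right. Erbb4 is the largest part in every library except LI2, where Erbb3 takes 44.3%.

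Of the ligand genes sought, Nrg3 had no row, and Nrg1 was more abundant on average than Nrg2 and by far more variable. Nrg1 stood at 25.8, 29.4, 57.0 and 176 CPM in HI1 to HI4, against 34.8, 23.3, 107 and 73.2 CPM in LI1 to LI4. The groups overlapped fully, with the highest value in HI4 and the lowest in LI2, and the highest was 7.56 times the lowest. The log2 fold change was 0.28 ± 0.64 (SE), with a 95% interval from -1.16 to 1.71 (adjusted p = 1.00, edgeR quasi-likelihood). Without HI4 it was -0.67, without LI3 0.72, without LI1 0.08 and without LI2 0.01. Over the 8 libraries the SD of its log2 CPM was 1.05, where the median over all genes tested was 0.27, and 99.0% of genes varied less.

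Within both groups Nrg1 was higher in the libraries numbered 3 and 4 than in those numbered 1 and 2. Its level was 57.0 and 176 CPM in HI3 and HI4 and 25.8 and 29.4 CPM in HI1 and HI2, and it was 107 and 73.2 CPM in LI3 and LI4 and 34.8 and 23.3 CPM in LI1 and LI2. Ribosomal RNA took 3.96% and 0.406% of counts in HI3 and HI4 and 6.12% and 25.5% in HI1 and HI2, and it took 0.418% and 1.37% in LI3 and LI4 and 5.44% and 6.42% in LI1 and LI2. The 4 libraries with the most Nrg1 were therefore the 4 with the least ribosomal RNA. HI minus LI in Nrg1 was -0.08 ± 0.21 (SE) in log2 between the libraries numbered 1 and 2, and 0.39 ± 0.73 between those numbered 3 and 4, both with 2 libraries a group (adjusted p = 0.979 and 1.00, edgeR quasi-likelihood). The labels do not say what the numbers stand for, and the part of ribosomal RNA content in the Nrg1 values was not tested.

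The deposited tables list 14 Nrg1 transcripts under 1 gene, and the gene's transcript length is a mean weighted by their estimated abundance. That mean was 3364, 3212, 3382 and 3262 bases in HI1 to HI4, against 3311, 3375, 3276 and 3357 bases in LI1 to LI4. The groups overlapped; HI2 had the shortest mean, followed by HI4 and LI3, the libraries with the most Nrg1. The group means were 3305 ± 81.4 bases over HI and 3330 ± 44.7 bases over LI libraries (SD of 4, two-sided exact permutation p = 0.600). The mean length is only a coarse sign of which splice forms were present, since forms of equal length cannot be told apart by it.

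Nrg2, a second neuregulin, was the steadiest of the 6 genes. It stood at 16.96, 18.7, 16.1 and 14.2 CPM in HI1 to HI4, against 16.97, 14.9, 12.3 and 20.3 CPM in LI1 to LI4. The LI libraries spanned the whole HI range. The log2 fold change was 0.03 ± 0.18 (SE), with a 95% interval from -0.36 to 0.43 (adjusted p = 1.00, edgeR quasi-likelihood), and only 38.3% of all genes tested varied less over the 8 libraries. Since Nrg2 was steady, the TPM ratio of Nrg1 to Nrg2 followed Nrg1. It was 1.38, 1.501, 3.18 and 11.6 in HI1 to HI4, against 1.89, 1.42, 8.14 and 3.27 in LI1 to LI4. Nrg1 took 71.5 ± 15.9% of the summed TPM of both over HI libraries and 72.4 ± 13.3% over LI libraries (SD of 4, exact permutation p = 0.914, adjusted 0.914).

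Per transcript length, the 6 genes fell in the order Nrg1, Erbb4, Nrg2, Erbb3, Egfr and Erbb2. Their mean levels over the 8 libraries were 42.1 ± 35.1, 15.5 ± 5.44, 11.2 ± 1.70, 7.11 ± 3.64, 4.89 ± 1.27 and 0.981 ± 0.266 TPM (SD). Nrg1 lay above Erbb4 in 7 of 8 libraries, Erbb4 above Nrg2 in 6, Nrg2 above Erbb3 in 7 and Erbb3 above Egfr in 6, so none of these neighbours held its place in all libraries. Egfr lay above Erbb2 in all 8, by 3.99 to 6.38 times.

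The genes whose levels ran most like each of the 6 were found by Pearson correlation of log2 CPM over the same 8 libraries, as a description. Since they were chosen by this correlation, the patterns they share with the 6 follow from the choice. For Erbb4 they were Suco (r = 0.980), Rc3h2 (0.978) and Sesn3 (0.973). Suco ranged over HI libraries from 28.9 to 38.2 CPM and over LI libraries from 24.5 to 27.3 CPM. For Egfr they were Mtr (0.976), Btbd7 (0.968) and Slc36a4 (0.966), and for Erbb2 Ptpn9 (0.956), Mms19l (0.953) and Nubpl (0.952). For Erbb3 they were Abca2 (0.991), a transporter abundant in oligodendrocytes, Ptpn11 (0.969), which encodes a phosphatase that binds activated growth factor receptors, and Mcm2 (0.957). Abca2 and Ptpn11, chosen for running with Erbb3, were highest in LI2, at 540 and 392 CPM. For Nrg1 they were Hirip3 (0.994), Papss2 (0.993) and Zc3h13 (0.993), and for Nrg2 Tmem39a (0.955), Prss35 (0.954) and Lpcat3 (0.950).

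Papss2, which makes the sulfate donor for sulfation, was chosen for running with Nrg1. It ranged over HI libraries from 87.4 to 511 CPM and over LI libraries from 70.2 to 351 CPM, highest in HI4 and LI3. The number of genes that ran with Nrg1 was large. Of 11630 other genes, 880 had a correlation above 0.9 with Nrg1 and 983 one below -0.9. The same counts were 73 and 31 for Erbb4, 42 and 96 for Erbb2, 24 and 22 for Erbb3, 23 and 12 for Egfr and 18 and 9 for Nrg2. All these correlations rest on the same 8 libraries and share their depth and ribosomal RNA content.

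Other ligands of ErbB receptors differed in whether they were detected. Of 8 genes in the list of remaining EGF family ligands, 7 had a row, and 3 passed the low-count filter. Areg and Ereg had no count in any library. At 7354416 to 9476656 counts a library, absence cannot be told from a level too low to be counted. Btc and Nrg4 stayed at or under 0.252 and 0.208 CPM. Of the 3 tested, Tgfa, an EGF receptor ligand, stood at 13.0, 20.99, 16.5 and 26.1 CPM in HI1 to HI4, against 9.79, 24.7, 19.9 and 31.3 CPM in LI1 to LI4. LI4 was the highest and LI1 the lowest, so the groups overlapped fully, and the log2 fold change was -0.17 ± 0.33 (SE), or 0.074 without LI4. Hbegf differed by 0.16 ± 0.21 and Egf by -0.38 ± 0.42 (SE). Of the 3 ligands 1 was higher and 2 were lower in HI, and none was called.

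The proteases that release neuregulins or cleave ErbB4 showed no common direction. Of 11 tested, 7 were higher and 4 lower in HI, the median log2 fold change was 0.02, and none was called or had an unadjusted p under 0.05 in edgeR's quasi-likelihood test. Bace1, the beta-secretase that processes Nrg1, stood at 87.5, 100, 90.1 and 66.6 CPM in HI1 to HI4, against 68.3, 90.7, 68.1 and 69.6 CPM in LI1 to LI4. HI4 was the lowest of all, and LI2 lay inside the range of the other 3 HI libraries. Its log2 fold change was 0.21 ± 0.15 (SE). Adam19, a metalloprotease that cleaves neuregulins, differed by 0.19 ± 0.14 (SE).

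Adaptors and kinases downstream of ErbB receptors were mostly close to 0 in log2 fold change. Of 29 tested, 20 were higher and 9 lower in HI (48.5% of all genes tested were higher). The median was 0.05, and none was called. Of the 29, 2 had an unadjusted p under 0.05 in edgeR's quasi-likelihood test and 2 separated the groups. Over all genes tested 4.16% had such a p and 3.46% separated the groups. With scaling by library totals alone, which shifts the median of all genes to -0.12, the median of the list was -0.06. Shc3, a neuronal adaptor of receptor tyrosine kinases, stood at 67.5, 82.0, 75.9 and 74.8 CPM in HI1 to HI4, against 59.1, 58.0, 41.6 and 57.1 CPM in LI1 to LI4. Each HI library exceeded each LI library, and LI3 was well below the other LI libraries. The log2 fold change was 0.47 ± 0.13 (SE, adjusted p = 1.00, edgeR quasi-likelihood). Pik3cb, a catalytic subunit of phosphoinositide 3-kinase, also separated the groups (0.38 ± 0.13, SE), with 29.2 to 36.2 CPM in HI libraries and 23.4 to 27.6 CPM in LI libraries. Mtor, a growth-controlling kinase, differed by 0.24 ± 0.11 (SE), and HI4 lay below LI2.

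Regulators that limit or sort ErbB receptors, or that limit the pathway below them, were higher in HI in 11 of 13 tested. Their median log2 fold change was 0.14, but none was called. The list held 16 genes, of which Lrig1, Cbl and Erbb2ip had no row. Of these 13, 3 had an unadjusted p under 0.05 and 2 separated the groups; over all genes tested 48.5% were higher in HI, 4.16% had such a p and 3.46% separated the groups. Spred1, an inhibitor of the Ras and MAP kinase pathway, stood at 39.1, 47.9, 39.8 and 40.2 CPM in HI1 to HI4, against 28.8, 37.0, 26.8 and 30.5 CPM in LI1 to LI4. Each HI library exceeded each LI library, and HI2 and LI2 were the highest of their groups. Its log2 fold change was 0.44 ± 0.14 (SE, adjusted p = 1.00, edgeR quasi-likelihood). Errfi1, an inhibitor that binds the kinase domain of ErbB receptors and is induced by their signalling, stood at 38.9, 38.0, 34.9 and 38.9 CPM in HI1 to HI4, against 30.6, 31.3, 34.2 and 30.4 CPM in LI1 to LI4. The groups were separate, though HI3 and LI3 lay close together, and the log2 fold change was 0.25 ± 0.11 (SE, adjusted p = 1.00, edgeR quasi-likelihood). Cblb, a ubiquitin ligase that acts on activated receptors, differed by 0.42 ± 0.16 (SE), with HI2 and LI4 at the same level of 16.9 CPM. The list's median moved with single libraries, to 0.25 without HI2, 0.25 without LI3 and 0.07 at its lowest.

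**Figure D5:**
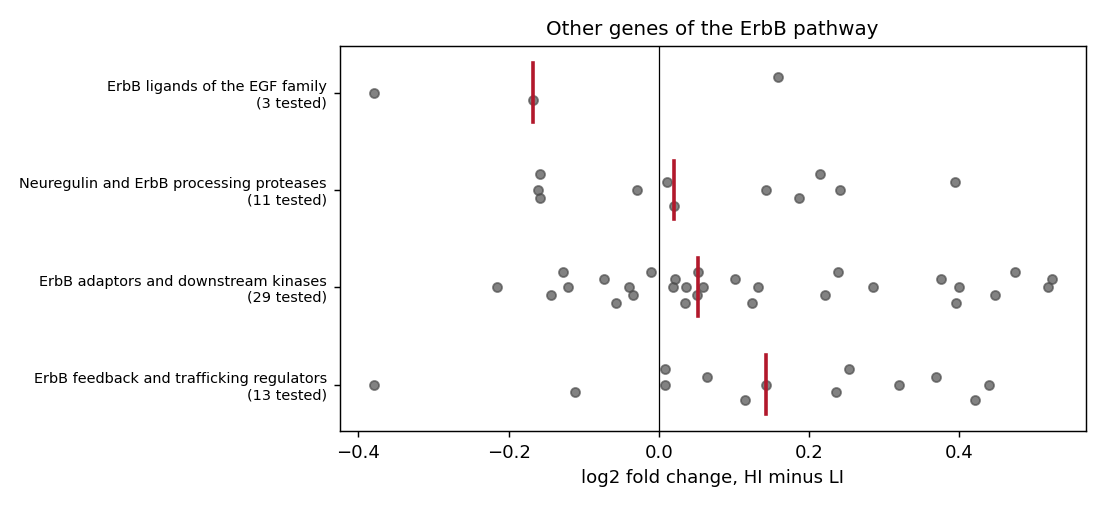
Log2 fold change, HI minus LI, of each tested gene (grey points, spread vertically for sight) in 4 lists of other ErbB pathway genes, with the median of each list as a red line. The medians are -0.17 for ligands, 0.02 for proteases, 0.05 for adaptors and kinases and 0.14 for regulators, and no gene passed the threshold.

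The other marker lists overlapped between HI and LI in summed level. Astrocyte markers (most abundant S100b and Aldoc), from cells that can carry Egfr, were higher in HI in 4 of 9. Their median log2 fold change was -0.01, from -0.10 to 0.06 with 1 library left out. They summed to 3975 to 5271 TPM in HI and 4311 to 5029 TPM in LI. Of these 9, 1 had an unadjusted p under 0.05 in edgeR's quasi-likelihood test, Slc1a2 (0.54, higher in HI). S100b (-0.25) and Aldoc (-0.23) were lower in HI. Microglial markers (C1qa among the most abundant) were lower in all 10, with a median of -0.25 (-0.09 without HI4), and summed to 409 to 531 TPM in HI and 511 to 587 TPM in LI. Of these 10, 2 had an unadjusted p under 0.05 and 2 separated the groups, beside 4.16% and 3.46% of all genes tested. Over all genes tested 48.5% were higher in HI. Endothelial and pericyte markers (Rgs5 and Cldn5) were higher in 7 of 9 (median 0.18, 0.04 without HI1 or without LI3 and 0.31 without HI4), at 140 to 233 TPM in HI and 120 to 188 TPM in LI. Meningeal fibroblast markers (Ptgds and Igf2) were higher in all 7 tested (median 1.80, and 0.50 without HI1), at 389 to 8089 TPM in HI and 213 to 1597 TPM in LI. Of 5 Schwann cell markers (Egr2 and Cdh19) 3 were tested (median 0.07, from -0.14 without LI1 to 0.92 without LI4), summing to 18.98 to 37.6 TPM in HI and 9.93 to 27.7 TPM in LI. An unadjusted p under 0.05 was found in 2 of the 7 meningeal fibroblast markers and 1 of the 3 Schwann cell markers. No endothelial or pericyte marker had one, beside 4.16% of all genes tested. None of the genes in these lists was called, and none was at 0 in all libraries.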

How the data were processed

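Each library has 1 deposited table. Per the file headers, the authors gave an expected count, TPM and FPKM for each gene, with transcript lengths weighted over listed transcripts; the deposited FPKM values were not used. The submitters' processing notes name Bowtie2 2.1.0. The sources used here do not give the quantifier, build, annotation or use of strand, so coordinates are left out and overlapping genes cannot be separated. All 19 transcripts listed for the 6 genes matched the same symbol in RefSeq (GRCr8, names only).

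Expected counts were rounded and scaled by TMM in edgeR 4.0.16 (R 4.3.3), after filterByExpr at its defaults (minimum count 10, minimum total 15). The HI and LI libraries were compared over 11631 genes with edgeR's quasi-likelihood test, Benjamini-Hochberg adjusted, with the threshold of 0.1 that the series' design text states. Each SE was derived from the log2 fold change and the F statistic, and 95% intervals use the test's degrees of freedom. Log2 CPM used a prior count of 2. Shares and transcript length were compared by exact permutation (70 assignments). The design text names Fisher's exact test; on summed counts it ignores spread between libraries and was an alternative, with DESeq2 1.42.0, limma 3.58.1, other scalings and filters, log2(TPM + 1) and log2(TPM + 0.1), a length correction, a replicate block and each library left out. The test was also run on simulated counts with known fold changes. In them every gene had the same relative spread and libraries varied independently, so they do not show how the test behaves on these data.

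The genes and lists were chosen with earlier results of these data known. Named genes are the 6, the 3 of each pathway list with the smallest p, and the 3 nearest to each of the 6 by correlation. Marker lists are given by counts, summed levels and their 2 most abundant genes. For interneuron, excitatory neuron and astrocyte markers, the genes at an unadjusted p under 0.05 are named too. A few genes that these rules take are not reported here.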

Additional observations from a re-analysis of the deposited data

Results flagged for a closer look

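In groups of 4 libraries, a value was singled out when its gap to the nearest other value exceeded 0.829 of the group's range (Dixon's 95% critical value), which chance does in about 1 in 20 groups. Over the CPM of the 6 genes and of the 12 pathway genes taken by the naming rule, 5 of the shares and the Nrg1 transcript length, 48 groups were examined and 5 values were singled out. Erbb3 in LI2 stood at 30.7 CPM, where the other LI libraries reached at most 11.6. The share of Erbb3 in the receptors' summed TPM was 44.3% in LI2, where the next LI library had 26.1%. Bace1 in LI2 stood at 90.7 CPM, above 69.6 in the next LI library. Shc3 in LI3 stood at 41.6 CPM, below 57.1 in the next LI library. Spred1 in HI2 stood at 47.9 CPM, above 40.2 in the next HI library. LI2 accounts for 3 of the 5, of which the Erbb3 level and the Erbb3 share rest on the same counts. Levels and shares of a gene are not independent, so the 48 groups are not separate trials. LI2 was also the library with the most myelin and striatal transcripts, and the part of these in its values was not tested.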

How the results depend on the processing

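edgeR's quasi-likelihood test called 0 genes under each scaling, filter, covariate and left-out library tried, and limma-voom, limma on TPM and limma with the length correction, each run once on all 8 libraries (TPM with both pseudocounts), also called 0, while DESeq2 called 30 genes and Fisher's exact test on summed counts 6602 (56.8% of those tested). Fisher's test called Erbb4 (0.64), Egfr (0.37), Erbb3 (-0.37) and Nrg1 (0.15), in log2 fold change. Erbb4 stayed between 0.57 and 0.83 with each library left out and between 0.63 and 0.82 under the other alternatives; Egfr stayed between 0.33 and 0.61 and between 0.35 and 0.54, and Erbb2 between 0.10 and 0.41 and between 0.08 and 0.27. With 1 library left out Nrg1 ranged from -0.67 to 0.72, Nrg2 from -0.078 to 0.16, Erbb3 from -0.47 to 0.27 and Tgfa from -0.41 to 0.074. Nrg1 was also negative without HI4 and LI3 together (-0.22) and between replicates 1 and 2 (-0.082), and Hbegf between replicates 3 and 4 (-0.068). Nrg2 was negative with library totals only (-0.088), by Fisher's test (-0.097), with ribosomal RNA content as a covariate (-0.039), without HI4 and LI3 together (-0.017) and between replicates 3 and 4 (-0.085). The covariate, the paired omission and the splits by replicate were chosen after seeing the data; the cause of each change of sign was not tested. Without 1 library the HI minus LI share of Egfr ranged from -0.73 to 1.43 percentage points, that of Nrg1 from -7.71 to 4.68 and that of Nrg2 from -4.68 to 7.71.

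Libraries with the same replicate number deviated from their group means with correlations of 0.22, 0.54, -0.05 and 0.06 for numbers 1 to 4. Between libraries of unlike number the correlations ran from -0.59 (HI4 with LI2) to 0.78 (HI4 with LI3). The numbers were therefore not taken to pair libraries. With a replicate block edgeR's quasi-likelihood test called 0 genes (578 at an unadjusted p under 0.05), and the log2 fold changes were 0.72 for Erbb4, 0.46 for Egfr, 0.24 for Erbb2, -0.14 for Erbb3, 0.06 for Nrg1 and 0.05 for Nrg2. With the block the SE was 0.33 for Nrg1 (0.64 without it) and 0.22 for Erbb3 (0.37 without it). For Erbb4 it was 0.18 (0.19 without the block) and for Nrg2 0.18 (0.18 without the block). Depth limits Erbb2 most, at 13 to 29 counts a library.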
